A study of Mus musculus with 8 samples.

Results

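The genes described here are 9 that blood cells of the myeloid branch use, followed through bone marrow stroma from which cells carrying the leukocyte antigen CD45 had been sorted away. They are *Ptprc*, *Lyz2*, *S100a8*, *S100a9*, *Mpo*, *Elane*, *Csf1r*, *Itgam* and *Cd68*. They were chosen by name, as rows of the normalized table with these symbols, and all 9 have a row among the 15880 genes it lists. Each symbol was matched to a single Ensembl gene.

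RNA was sequenced from cells of newborn *Nes-Gfp* heterozygous pups on the C57BL/6 background, whose GFP is under control of nestin regulatory elements. On postnatal day 1 the bones of 3 pups were pooled per library, crushed and digested with collagenase, and cells lacking CD45, CD31 (endothelium) and Ter119 (erythroid cells) were sorted by GFP and by surface Pdgfrα. The 4 populations were GFP- Pdgfrα-, GFP+ Pdgfrα-, GFP- Pdgfrα+ and GFP+ Pdgfrα+ cells, with 2 libraries each from 15000 to 80000 cells, and all came from pups of the same genotype and age. The RNA was amplified to cDNA by a kit that does not mark the strand.

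Myeloid cells arise in the marrow from progenitors that also give rise to erythroid cells and platelets. Progenitors at the promyelocyte stage fill primary granules with peroxidase and serine proteases, and later neutrophils fill their cytosol with calcium-binding S100 proteins, whereas monocytes and macrophages depend on the receptor for the growth factor Csf1. The phosphatase CD45 stands on the surface of nearly every nucleated blood cell, though its level falls as erythroid cells mature.

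Each value in the table equals the reads of a gene plus 0.5, per 1e6 of an effective library size, so whole reads could be recovered. Libraries held 3221217 to 5302762 reads on genes, and 3 reads corresponded to a value between 0.825 and 1.04, which is taken as the floor of a library. Differences are taken after a log2 transform of value + 1, on which genes as low as these show less than their full change. They come from limma, fitted over all genes and all 8 libraries with p-values adjusted by the Benjamini-Hochberg method over 15880 genes, and a gene is called at an adjusted p of at most 0.05. An exact permutation test of 2 libraries against 2 cannot give a two-sided p below 0.333, so these p-values rest on a spread shared across genes. Floors and intervals cover counting error only, since amplified reads are not independent molecules. In bulk RNA, fewer cells of a type and less RNA per cell cannot be told apart.

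The 9 genes were rare in all libraries and most abundant in GFP- Pdgfrα- cells. Together they took 307 and 334 reads from GFP- Pdgfrα- pools, 131 and 135 from GFP+ Pdgfrα- pools, 103 and 47 from GFP- Pdgfrα+ pools, and 18 and 79 from GFP+ Pdgfrα+ pools. As a share of the reads this ran from 0.000505% (95% Wilson interval, 0.000319% to 0.000798%) in replicate 1 of GFP+ Pdgfrα+ cells to 0.00756% (0.00676% to 0.00846%) in replicate 1 of GFP- Pdgfrα- cells. The summed normalized values were 89.5 and 79.8, 32.9 and 35.9, 27.1 and 15.3, and 6.21 and 24 in the same order. The GFP- Pdgfrα- libraries lay above all others, those of GFP+ Pdgfrα- cells came next, and the Pdgfrα+ populations overlapped. For 7 of the 9 genes the GFP- Pdgfrα- libraries were the highest of the 8, an arrangement found for 26.8% of all genes. *Ptprc* and *Elane* are among the 7 and have values over 2 only in those libraries. Their place in this count, here and below, therefore carries no weight.

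**Figure D1:**
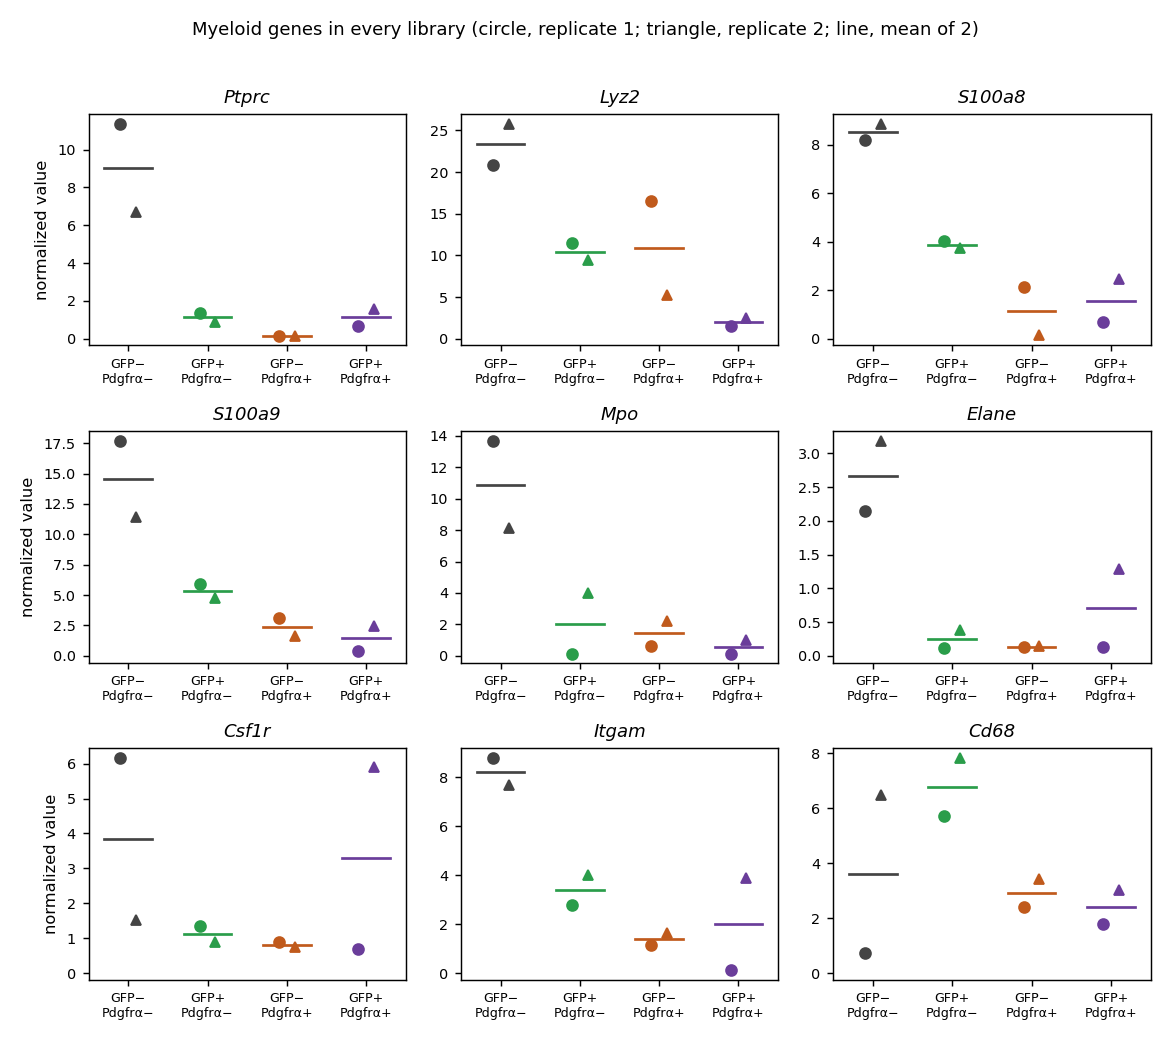
Normalized value of each of the 9 genes (vertical axis, a separate scale per panel) in the 4 populations, with a circle for replicate 1, a triangle for replicate 2 and a line at their mean. Both GFP- Pdgfrα- libraries lie above the other 6 for every gene but *Csf1r* and *Cd68*.

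*Ptprc* (ENSMUSG00000026395; NCBIM37 chromosome 1, 139959438 to 140071882, minus strand, 46 exon blocks) encodes CD45 itself, the antigen used to discard leukocytes. Its values were 11.3 and 6.72 for GFP- Pdgfrα-, 1.34 and 0.900 for GFP+ Pdgfrα-, 0.126 and 0.149 for GFP- Pdgfrα+, and 0.690 and 1.58 for GFP+ Pdgfrα+. These correspond to 39 and 28 reads, then 5 and 3, then 0 and 0, and then 2 and 5. The transcript was thus present in cells sorted as CD45 negative, mainly in the GFP- Pdgfrα- libraries, and it was not detected in GFP- Pdgfrα+ cells. The GFP+ populations overlapped with each other and lay between. Means ± SD (n = 2) were 9.03 ± 3.27 for GFP- Pdgfrα-, 1.12 ± 0.308 for GFP+ Pdgfrα- and 1.14 ± 0.630 for GFP+ Pdgfrα+. *Ptprc* fell in GFP+ Pdgfrα- relative to GFP- Pdgfrα- cells by 2.21 on the log2 scale (standard error 0.41, adjusted p = 0.000614, limma). Setting GFP- Pdgfrα+ cells, with 0 reads in both libraries, at the floor of 3 reads each puts the GFP- Pdgfrα- mean at least 8.69-fold higher (adjusted p = 3.35e-05, limma). Values over 2 occur only in the GFP- Pdgfrα- libraries, so a table filtered on such values holds *Ptprc* only because it was high there. The tests against GFP- Pdgfrα- cells are therefore given without weight, also where all 18 alternatives kept the call (adjusted p of at most 0.00940 and 0.000754). Among Pdgfrα+ cells *Ptprc* was not called between GFP+ and GFP- (fitted log2 difference 0.88, standard error 0.41, adjusted p = 0.279, limma). With 0 reads in both GFP- Pdgfrα+ libraries, the size of that difference depends on the pseudocount. Between the GFP+ populations the log2 difference of *Ptprc* was -0.01 (adjusted p = 0.986, limma).

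*Mpo* and *Elane* encode myeloperoxidase and neutrophil elastase, which are made in promyelocytes and stored in primary granules. *Mpo* (ENSMUSG00000009350; chromosome 11, 87607083 to 87617915, plus strand, 15 exon blocks) had values of 13.6 and 8.14 for GFP- Pdgfrα-, 0.121 and 3.99 for GFP+ Pdgfrα-, 0.630 and 2.23 for GFP- Pdgfrα+, and 0.138 and 1.01 for GFP+ Pdgfrα+. The reads were 47 and 34, 0 and 15, 2 and 7, and 0 and 3. The GFP- Pdgfrα- libraries stood apart, whereas the 3 other populations overlapped and the libraries of GFP+ Pdgfrα- cells differed widely (mean 2.05 ± 2.73, SD of 2 libraries, beside 10.9 ± 3.89 for GFP- Pdgfrα-). *Mpo* was lower in GFP+ Pdgfrα- cells than in GFP- Pdgfrα- by a log2 difference of -2.29 (standard error 0.65, adjusted p = 0.00991, limma), and in GFP- Pdgfrα+ cells by -2.33 (adjusted p = 0.00789, limma). With 3 reads in GFP+ Pdgfrα+ cells against 81 for GFP- Pdgfrα-, the ratio of pooled reads, scaled by effective library size, was 24.8 (95% counting interval, 8.2 to 123). The call in GFP+ Pdgfrα- cells was lost without GFP- Pdgfrα- replicate 1 (log2 difference -1.95) and without GFP+ Pdgfrα- replicate 1 (-1.21), and over the alternatives its adjusted p ran from 0.00188 to 0.140. The call in GFP- Pdgfrα+ cells was lost without GFP- Pdgfrα- replicate 1 (-1.99), without GFP- Pdgfrα+ replicate 1 (-1.84) and with a pseudocount of 0.1, its adjusted p running from 0.00189 to 0.0832. An unanalysed transcript annotated on the other strand overlaps *Mpo*, so a part of its reads cannot be assigned to a strand.

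*Elane* (ENSMUSG00000020125; chromosome 10, 79349057 to 79350961, plus strand, 5 exon blocks) had the fewest reads of the set. Its values were 2.15 and 3.18 for GFP- Pdgfrα-, 0.121 and 0.386 for GFP+ Pdgfrα-, 0.126 and 0.149 for GFP- Pdgfrα+, and 0.138 and 1.29 for GFP+ Pdgfrα+. In reads these were 7 and 13, 0 and 1, 0 and 0, and 0 and 4. Only the GFP- Pdgfrα- libraries were both above the floor, and the other populations overlapped. *Elane* was called lower in GFP+ Pdgfrα- cells than in GFP- Pdgfrα- (log2 difference -1.54, standard error 0.41, adjusted p = 0.00692, limma), with 1 read against 20 and a ratio of 20.7 scaled in the same way (95% counting interval, 3.32 to 859). In GFP- Pdgfrα+ cells, with 0 reads in both libraries, the floor of 3 reads put the mean of GFP- Pdgfrα- cells at least 2.57-fold higher (adjusted p = 0.00364, limma). The call in GFP+ Pdgfrα- cells was lost without GFP- Pdgfrα- replicate 2 (-1.34) and without GFP+ Pdgfrα- replicate 1 (-1.39), and its adjusted p ran from 0.000492 to 0.0563 over the alternatives. As for *Ptprc*, values over 2 occur only in the GFP- Pdgfrα- libraries, and these tests are given without weight.

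*S100a8* and *S100a9* encode the subunits of calprotectin, an abundant cytosolic complex of neutrophils that binds calcium and zinc. They lie 22597 bases apart on chromosome 3. *S100a8* (ENSMUSG00000056054; 90472993 to 90473956, plus strand, 3 exon blocks) had values of 8.19 and 8.84 for GFP- Pdgfrα-, 4.01 and 3.73 for GFP+ Pdgfrα-, 2.14 and 0.149 for GFP- Pdgfrα+, and 0.690 and 2.44 for GFP+ Pdgfrα+. *S100a9* (ENSMUSG00000056071; 90496554 to 90499643, minus strand, 3 exon blocks) had 17.7 and 11.4, 5.95 and 4.76, 3.15 and 1.63, and 0.414 and 2.44 in that order. Both genes fell into the same order at the top, with GFP- Pdgfrα- above GFP+ Pdgfrα- cells and GFP+ Pdgfrα- above both Pdgfrα+ populations, which overlapped. In GFP- Pdgfrα+ relative to GFP- Pdgfrα- cells *S100a8* fell by 2.32 (standard error 0.52, adjusted p = 0.00198, limma) and *S100a9* by 2.20 (standard error 0.48, adjusted p = 0.00178, limma), and all 18 alternatives kept both calls. In GFP+ Pdgfrα- relative to GFP- Pdgfrα- cells *S100a9* was called (-1.27, adjusted p = 0.0431, limma) and *S100a8* was not (-0.97, adjusted p = 0.138, limma), though 3 alternatives called it lower, with adjusted p from 0.0231 to 0.355. That difference of *S100a9* lost its call in 9 of 18 alternatives, with adjusted p from 0.00851 to 0.219. It ended without GFP- Pdgfrα- replicate 1 (-0.98) or 2 (-1.56), without GFP+ Pdgfrα- replicate 1 (-1.40) or 2 (-1.13), and without either GFP- Pdgfrα+ library, which leaves the difference itself unchanged. Between the GFP+ populations *S100a9* was lower in GFP+ Pdgfrα+ cells (-1.52, adjusted p = 0.0389, limma), a call also lost in 9 of 18 alternatives, among them without GFP+ Pdgfrα- replicate 1 (-1.38) or 2 (-1.65), without GFP+ Pdgfrα+ replicate 1 (-0.88) and without either GFP- Pdgfrα+ library, with adjusted p from 0.0150 to 0.243. The other S100 genes followed here, *S100a10* and *S100a11*, which many cell types express, had the opposite order. *S100a10* stood at 5.60 and 8.37 for GFP- Pdgfrα- and between 70.6 and 246 elsewhere, and *S100a11* at 12.2 and 21.1 against 94.3 to 297.

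*Lyz2* (ENSMUSG00000069516; chromosome 10, 116714390 to 116719377, minus strand, 4 exon blocks) encodes lysozyme of macrophages and neutrophils, an enzyme that cleaves bacterial cell walls. It had the most reads of the 9 genes. Its values were 20.8 and 25.8 for GFP- Pdgfrα-, 11.5 and 9.39 for GFP+ Pdgfrα-, 16.5 and 5.2 for GFP- Pdgfrα+, and 1.52 and 2.44 for GFP+ Pdgfrα+. It was the sole gene of the set for which both GFP+ Pdgfrα+ libraries, with 5 and 8 reads, had values below those of every other library, while GFP+ Pdgfrα- and GFP- Pdgfrα+ cells overlapped. The means ± SD (n = 2) were 23.3 ± 3.53, 10.5 ± 1.52, 10.9 ± 8 and 1.98 ± 0.654. *Lyz2* was called lower in GFP+ Pdgfrα+ cells than in GFP+ Pdgfrα- (log2 difference -1.95, standard error 0.45, adjusted p = 0.00782, limma), in GFP+ Pdgfrα+ cells than in GFP- Pdgfrα+ (-1.82, adjusted p = 0.0374, limma), and in GFP- Pdgfrα+ cells than in GFP- Pdgfrα- (-1.22, adjusted p = 0.0348, limma). Between GFP+ Pdgfrα- and GFP- Pdgfrα- cells it was -1.08 (adjusted p = 0.0609, limma), and 7 alternatives called it lower, with adjusted p from 0.00945 to 0.235. The call against GFP+ Pdgfrα- cells was lost without GFP+ Pdgfrα- replicate 1 (-1.82) or GFP+ Pdgfrα+ replicate 1 (-1.73), with adjusted p from 0.00295 to 0.0825 over the alternatives. The other calls were each lost in 8 of 18 alternatives, among them without either GFP+ Pdgfrα- library, which enters only through the shared variance. The call of GFP+ Pdgfrα+ against GFP- Pdgfrα+ cells ended without GFP- Pdgfrα+ replicate 1 (-1.07) and without GFP+ Pdgfrα+ replicate 1 (-1.60) or 2 (-2.05), with adjusted p from 0.0167 to 0.301. For GFP- Pdgfrα+ against GFP- Pdgfrα- cells it ended without GFP- Pdgfrα- replicate 1 (-1.36) or 2 (-1.07) and without GFP- Pdgfrα+ replicate 2 (-0.47), with adjusted p from 0.00356 to 0.374. The near-identical paralog *Lyz1* is not analysed here, and RSEM can divide reads between such copies, so the level of *Lyz2* is uncertain to that extent.

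*Itgam* (ENSMUSG00000030786; chromosome 7, 135206154 to 135271674, plus strand, 31 exon blocks) encodes the integrin chain CD11b of neutrophils, monocytes and macrophages. Its values were 8.76 and 7.66 for GFP- Pdgfrα-, 2.79 and 3.99 for GFP+ Pdgfrα-, 1.13 and 1.63 for GFP- Pdgfrα+, and 0.138 and 3.88 for GFP+ Pdgfrα+. The GFP- Pdgfrα- libraries were again the highest, and the GFP+ Pdgfrα+ libraries, with 0 and 13 reads, spanned most of the range of the remaining populations. *Itgam* fell in GFP- Pdgfrα+ relative to GFP- Pdgfrα- cells by 1.96 (standard error 0.58, adjusted p = 0.0111, limma). The call was lost without GFP- Pdgfrα- replicate 1 (-1.87), without GFP- Pdgfrα+ replicate 1 (-1.80) and with a pseudocount of 0.1, and the adjusted p ran from 0.00106 to 0.0697. In GFP+ Pdgfrα- relative to GFP- Pdgfrα- cells the difference was -1.08 (adjusted p = 0.136, limma), and it passed the threshold under 5 alternatives that are given with the processing.

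*Csf1r* and *Cd68* are the members most used to mark monocytes and macrophages. *Csf1r* (ENSMUSG00000024621; chromosome 18, 61265226 to 61291803, plus strand, 23 exon blocks), the receptor for Csf1 and Il34, had values of 6.18 and 1.53 for GFP- Pdgfrα-, 1.34 and 0.900 for GFP+ Pdgfrα-, 0.882 and 0.743 for GFP- Pdgfrα+, and 0.690 and 5.89 for GFP+ Pdgfrα+. Replicate 1 of GFP- Pdgfrα- cells (21 reads) and replicate 2 of GFP+ Pdgfrα+ cells (20 reads) were high, and the other 6 libraries held 2 to 6 reads. *Cd68* (ENSMUSG00000018774; chromosome 11, 69477715 to 69479655, minus strand, 6 exon blocks), a glycoprotein of lysosomes, had values of 0.718 and 6.48 for GFP- Pdgfrα-, 5.71 and 7.85 for GFP+ Pdgfrα-, 2.40 and 3.42 for GFP- Pdgfrα+, and 1.80 and 3.02 for GFP+ Pdgfrα+. Its highest mean was in GFP+ Pdgfrα- cells, and replicate 1 of GFP- Pdgfrα- cells, with 2 reads, was the lowest library. Neither gene was called in any of the 4 comparisons or in the test of any difference (adjusted p = 0.273 for *Csf1r* and 0.250 for *Cd68*, limma). For *Cd68* in GFP+ Pdgfrα- relative to GFP- Pdgfrα- cells the fit gave 1.1 (standard error 0.59, adjusted p = 0.137, limma), and without GFP- Pdgfrα- replicate 2 it was 2.16 and called, with adjusted p from 0.00490 to 0.964 over the alternatives. *Csf1r* in GFP- Pdgfrα+ relative to GFP- Pdgfrα- cells had -1.24 (adjusted p = 0.114, limma) and was called lower in 5 alternatives, with adjusted p from 0.0248 to 0.598. *Csf1r* overlaps *Hmgxb3* on the opposite strand, whose values were 20.3 to 45.5 in all libraries; this gene is named for its position, after its values were seen, and reads of the shared bases cannot be told apart without strand.

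Levels between genes can be compared only per length. Per kilobase of the longest annotated transcript, the mean value in GFP- Pdgfrα- cells was 28.0 for *S100a9*, 21.7 for *S100a8* and 17.8 for *Lyz2*, against 3.96 for *Mpo*, 2.93 for *Cd68*, 2.90 for *Elane*, 1.71 for *Itgam*, 1.55 for *Ptprc* and 0.820 for *Csf1r*. On the same scale *S100a9*, *S100a8* and *Lyz2* also led in GFP+ Pdgfrα- cells, at 10.3, 9.87 and 7.97, followed by *Cd68* at 5.51. The neutrophil S100 genes and lysozyme thus gave the highest levels per length in both Pdgfrα- populations, and the surface receptors the lowest in GFP- Pdgfrα- cells.

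Against GFP- Pdgfrα- cells, GFP- Pdgfrα+ cells gave 7 of the 9 genes as called lower and 0 higher, where 26.8% of all genes were called lower and 32.9% higher. The median log2 difference was -1.96 over the 9 genes, also with *Ptprc* and *Elane* set at their bounds, and 0.17 over all genes. In GFP+ Pdgfrα- against GFP- Pdgfrα- cells 4 of 9 were called lower and 0 higher, against 23.6% and 30.1% of all genes, with a median of -1.08 beside 0.15. Without *Ptprc* and *Elane*, whose tests against GFP- Pdgfrα- cells carry no weight, 5 of 7 and 2 of 7 were called lower. The order of these counts depends on the fit, since it was 6 and 7 with only the compared populations, 8 and 8 with quantile normalization (32.0% and 27.8% of all genes called lower) and 8 and 7 with median centring (36.0% and 35.1%), and the difference between them was not tested. With only the compared populations, 9495 and 8427 of 15880 genes were called in either direction, beside 9476 and 8527 in the main fit.

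The comparisons within marker-positive cells gave few calls. In GFP+ Pdgfrα+ against GFP+ Pdgfrα- cells 2 of 9 were called lower and 0 higher (11.1% and 13.1% of all genes), with medians of -0.88 and -0.02. In GFP+ Pdgfrα+ against GFP- Pdgfrα+ cells 1 of 9 was called lower and 0 higher (2.13% and 3.22% of all genes), with medians of -0.01 and 0.00467. The 4 comparisons share populations in pairs, so their values are set side by side and not compared as independent results. A test of any difference over the 4 populations called 7 of 9, where it called 66.0% of all genes. The interaction of GFP with Pdgfrα was called for 2 of 9, *Ptprc* and *Elane*, where 44.3% of all genes were called. Both have values over 2 only in the GFP- Pdgfrα- libraries. A table filtered on such values holds them only because they were high there, so their calls are given without weight.

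**Figure D2:**
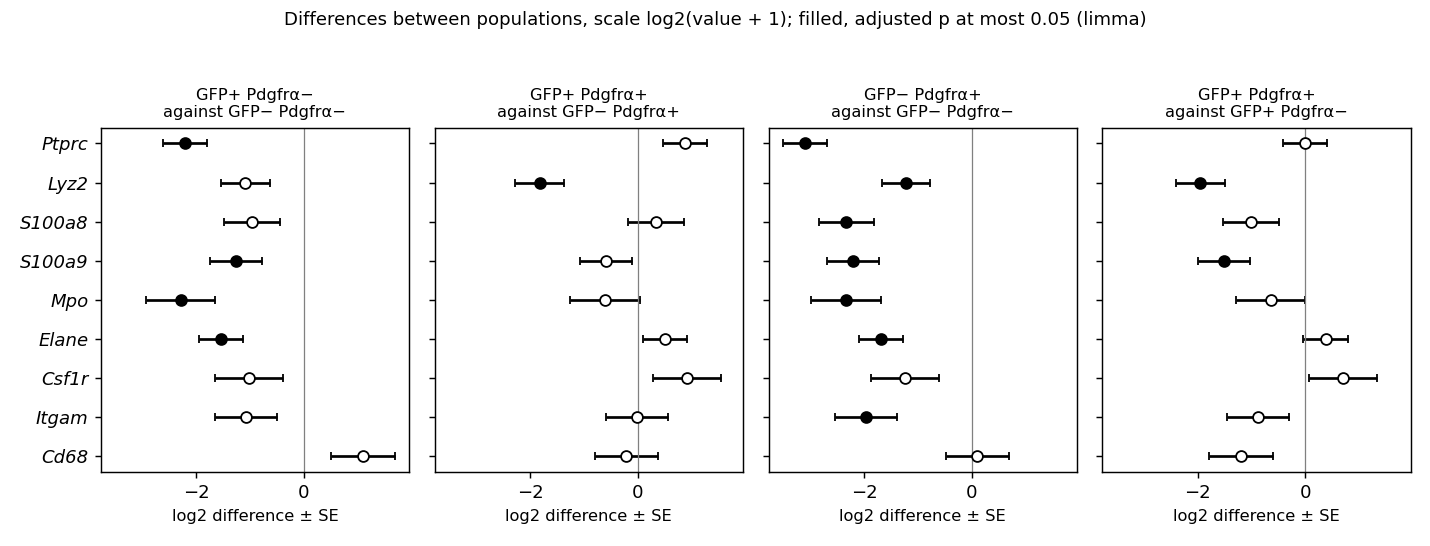
Log2 difference with its standard error for each of the 9 genes (rows) in 4 comparisons (panels), on the scale log2(value + 1) from limma; filled points have an adjusted p of at most 0.05. Filled points number 4, 1, 7 and 2 from left to right, and each lies below 0.

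Among the 9 genes, levels of log2(value + 1) over the 8 libraries were correlated most between *S100a8* and *S100a9* (Pearson r = 0.92, n = 8 libraries), then between *S100a9* and *Itgam* (0.90) and between *Ptprc* and *Elane* (0.89). Of 36 pairs, 23 had r above 0.5 and 4 were below 0, the lowest being *Csf1r* with *Cd68* at -0.45. These values describe libraries that share populations and composition, and they carry no test. A shared high level in the GFP- Pdgfrα- libraries runs through the highest of them, whereas *Cd68* followed none of the others closely.

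The genes most alike to each member were sought among 11004 genes with a mean value of at least 5, again by r over 8 libraries. This floor leaves out low genes, among them 7 of the 9 members themselves. *Ptprc* was followed most closely by *Ssb* (0.993), *Tmem20* (0.991) and *Smarca5* (0.990), *S100a8* by *Cox6c* (0.991), *Mettl8* (0.974) and *Sms* (0.971), and *S100a9* by *Ppil4* (0.994), *Zfp410* (0.986) and *4933431E20Rik* (0.982). For *Mpo* they were *Polr1e* (0.986), *Nme2* (0.973) and *Rnf115* (0.962), for *Elane* *Psmb4* (0.979), *Ap1m1* (0.979) and *Sc4mol* (0.969), and for *Itgam* *Gmpr2* (0.980), *Ppp2r5e* (0.976) and *Cnot2* (0.976). For *Lyz2* they were *Lrrc39* (0.969), *Gm5898* (0.959) and *Pgam5* (0.953), for *Cd68* *Ankrd11* (0.959), *Epc2* (0.957) and *Vasp* (0.951), and for *Csf1r* *1810006K21Rik* (0.916), *Tmco1* (0.903) and *Mospd1* (0.900). With 8 libraries in 4 populations, such values may arise readily in a search of this size, which was not tested. A likeness of pattern is all they describe.

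Of 27 neutrophil and granule genes listed, 19 were analysed, 5 of them members, and of the 14 others 7 were called lower and 0 higher in GFP- Pdgfrα+ cells than in GFP- Pdgfrα-, and 5 lower and 0 higher in GFP+ Pdgfrα- cells than in GFP- Pdgfrα-, where 26.8% and 23.6% of all genes were called lower. The 14 include *Cybb*, with values over 2 only in the GFP- Pdgfrα- libraries, so these counts are given without weight. Over the 14 the median log2 differences were -1.19 and -0.69, beside 0.17 and 0.15 over all genes. Over all 19, members included, they were -1.68 (-1.37 with genes at 0 reads set at their bounds) and -1.08. *Ngp*, a neutrophil granule protein, had values of 15.4 and 17.8 for GFP- Pdgfrα- and 1.24 to 4.66 in the other libraries, and fell by 1.96 in GFP+ Pdgfrα- cells (adjusted p = 0.00196, limma) and by 2.11 in GFP- Pdgfrα+ cells (adjusted p = 0.00102, limma). *Cybb*, the catalytic subunit of the phagocyte NADPH oxidase, stood at 5.60 and 3.42 for GFP- Pdgfrα- against at most 0.607 elsewhere. *Ltf*, the iron-binding lactoferrin of secondary granules, had 5.31 and 4.13 for GFP- Pdgfrα-, 1.82 and 1.41 for GFP+ Pdgfrα- and 0 reads in both GFP- Pdgfrα+ libraries. In these genes, as in *Mpo* and *Elane*, the GFP- Pdgfrα- libraries held the highest values. *Cybb* and *Elane* have values over 2 only in those libraries, so their pattern carries no weight. *Ltf* was below 2 in the GFP+ Pdgfrα- and GFP- Pdgfrα+ libraries and is given without weight as well.

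*Mmp9*, a gelatinase that neutrophils and osteoclasts both make, had another pattern. Its values were 5.89 and 2.71 for GFP- Pdgfrα-, 2.55 and 7.33 for GFP+ Pdgfrα-, 0.630 and 1.34 for GFP- Pdgfrα+, and 16.4 and 26.6 for GFP+ Pdgfrα+. It rose in GFP+ Pdgfrα+ relative to GFP- Pdgfrα+ cells by 3.49 (standard error 0.50, adjusted p = 0.00192, limma) and relative to GFP+ Pdgfrα- cells by 2.01 (adjusted p = 0.0119, limma). *Ncf1*, a cytosolic subunit of the same oxidase as *Cybb*, was also highest in GFP+ Pdgfrα+ cells, at 15.9 and 5.32 against 1.30 to 3.40 in the other libraries, and higher than in GFP+ Pdgfrα- cells (1.80, adjusted p = 0.0206, limma). *Lcn2*, the siderophore-binding lipocalin, had 13.6 and 8.37 for GFP- Pdgfrα- but also 10.5 and 5.79 for GFP- Pdgfrα+, and was called lower in GFP+ Pdgfrα- cells only (-1.77, adjusted p = 0.00953, limma).

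Of 30 monocyte and macrophage genes listed, 13 were analysed, 3 of them members. Of the 10 others, 1 was called lower and 1 higher in GFP- Pdgfrα+ cells than in GFP- Pdgfrα-, with a median of -0.41. In GFP+ Pdgfrα- cells it was likewise 1 lower and 1 higher, with a median of -0.61. The counts that follow are over all 13. In GFP- Pdgfrα+ against GFP- Pdgfrα- cells 2 were called lower and 1 higher, and in GFP+ Pdgfrα- against GFP- Pdgfrα- cells 1 lower and 1 higher, where 26.8% of all genes were called lower and 32.9% higher in the former and 23.6% and 30.1% in the latter, with medians of -0.54 (-0.28 with genes at 0 reads set at their bounds) and -0.67. The list summed to 51.3 and 55.3 for GFP- Pdgfrα-, 39.9 and 57.5 for GFP+ Pdgfrα-, 45.8 and 32.5 for GFP- Pdgfrα+, and 20.9 and 33.8 for GFP+ Pdgfrα+. These sums overlapped between GFP- Pdgfrα- and GFP+ Pdgfrα- cells, unlike those of the neutrophil list, which were 136 and 101 for GFP- Pdgfrα- and 29.0 to 67.4 in the other libraries. *Lyz2* had the highest mean value of the list over all libraries, and in GFP+ Pdgfrα- cells *Mpeg1* had the higher value. These values are not scaled by length, so they do not rank the levels of the genes. *Mpeg1*, the pore-forming perforin-2 of macrophages, was highest in GFP+ Pdgfrα- cells, at 14.9 and 28.4 against 1.04 to 3.18 in the other 6 libraries. It rose in GFP+ Pdgfrα- relative to GFP- Pdgfrα- cells by 2.71 (standard error 0.45, adjusted p = 0.000283, limma) and was lower in GFP+ Pdgfrα+ cells than in GFP+ Pdgfrα- (-2.65, adjusted p = 0.00118, limma). *Lgals3*, a galectin that macrophages and many stromal cells make, was highest in GFP- Pdgfrα+ cells, at 8.95 and 9.36, and *F13a1* did not pass the test in any of the 4 comparisons.

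Of the transcription factors of myeloid differentiation, several were lowest in GFP- Pdgfrα- cells. Of 16 listed, 13 were analysed, and 8 were called higher and 0 lower in GFP- Pdgfrα+ cells than in GFP- Pdgfrα-, and likewise 8 and 0 in GFP+ Pdgfrα- cells than in GFP- Pdgfrα-, where 32.9% and 30.1% of all genes were called higher, with medians of 1.86 and 1.71 beside 0.17 and 0.15. *Zeb2* led at 123 and 135 for GFP- Pdgfrα-, 700 and 738 for GFP+ Pdgfrα-, 212 and 199 for GFP- Pdgfrα+, and 504 and 436 for GFP+ Pdgfrα+. *Klf4* rose from 6.75 and 7.90 for GFP- Pdgfrα- to 54.5 and 64.4 for GFP+ Pdgfrα- and 122 to 154 in the Pdgfrα+ libraries, and *Cebpa*, which drives granulocyte genes in progenitors, from 0.718 and 0.825 for GFP- Pdgfrα- to 3.59 to 6.68 in the other libraries. *Maf* was at 1.87 and 4.36 for GFP- Pdgfrα- and at 14.5 to 48.6 elsewhere. These factors also act in stromal cells, so the list does not mark myeloid cells alone. *Runx1*, the other gene among the top 3 by mean, lay between 51.8 and 95.7 in all libraries. The gene of PU.1, listed as *Sfpi1* and named here for its role after its values were seen, had values of 0.149 to 3.30 and was not called in any of the 4 comparisons.

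Growth factors and receptors were mixed. Of 14 listed, 10 were analysed, and 2 were called higher and 3 lower in GFP+ Pdgfrα- cells than in GFP- Pdgfrα-, and 1 higher and 2 lower in GFP- Pdgfrα+ cells than in GFP- Pdgfrα-. For this list and the next ones, 30.1% of all genes were called higher and 23.6% lower in the former comparison, and 32.9% and 26.8% in the latter. *Kit*, the receptor for stem cell factor, stood at 347 and 266 for GFP- Pdgfrα- and 2.14 to 13.2 elsewhere. *Csf1*, the ligand of Csf1r, ran the other way, at 2.44 and 5.31 for GFP- Pdgfrα-, 28.5 and 23.3 for GFP+ Pdgfrα-, 137 and 108 for GFP- Pdgfrα+, and 113 and 82.9 for GFP+ Pdgfrα+. It rose in GFP- Pdgfrα+ relative to GFP- Pdgfrα- cells by 4.72 (standard error 0.28, adjusted p = 3.39e-08, limma). *Il34*, the other ligand of that receptor, was highest in GFP+ Pdgfrα- cells, at 4.98 and 5.02, with 0.431 and 0.118 for GFP- Pdgfrα- and 0.882 to 2.44 in the Pdgfrα+ libraries, and it was not called between GFP- Pdgfrα+ and GFP- Pdgfrα- cells (adjusted p = 0.0873, limma). *Csf2rb*, the shared chain of receptors for Csf2, Il3 and Il5, was highest in GFP- Pdgfrα- cells, at 9.05 and 4.60 against at most 2.16 elsewhere.

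Markers of erythroid cells were highest in GFP- Pdgfrα- cells, as were 7 of the 9 members. Of 20 erythroid genes listed, 14 were analysed, and all 14 were called lower in both GFP+ Pdgfrα- and GFP- Pdgfrα+ than in GFP- Pdgfrα- cells. They summed to 16592 and 24636 for GFP- Pdgfrα-, 236 and 147 for GFP+ Pdgfrα-, 88.2 and 72.5 for GFP- Pdgfrα+, and 73.2 and 70.1 for GFP+ Pdgfrα+. In GFP- Pdgfrα- cells they took 1.42% and 1.97% of the reads. The highest mean value, not scaled by length, was that of the beta-globin *Hbb-b1*, at 4362 and 7619 for GFP- Pdgfrα- and 12.9 to 51.4 elsewhere. *Hbb-b2* and the band 3 anion exchanger *Slc4a1* followed. Within GFP- Pdgfrα- cells the erythroid sum was higher in replicate 2 and the summed members higher in replicate 1. Erythroid genes at 0 reads numbered 0 in each Pdgfrα- library, 4 and 1 for GFP- Pdgfrα+, and 1 and 1 for GFP+ Pdgfrα+. Their part in the levels of the members was not tested.

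The sum of pan-leukocyte genes was also highest in GFP- Pdgfrα- cells. Of 20 listed, 19 were analysed, including *Ptprc*, and 17 were called lower and 1 higher in GFP- Pdgfrα+ cells than in GFP- Pdgfrα-, 16 lower and 1 higher in GFP+ Pdgfrα- cells than in GFP- Pdgfrα-. *Ptprc* and several others of the list have values over 2 only in the GFP- Pdgfrα- libraries, so these counts are given without weight. The list summed to 974 and 948 for GFP- Pdgfrα-, 103 and 88.6 for GFP+ Pdgfrα-, 80.6 and 78.9 for GFP- Pdgfrα+, and 76.1 and 57.1 for GFP+ Pdgfrα+. *Ikzf1*, which encodes Ikaros, led the list at 618 and 616 for GFP- Pdgfrα- and 1.64 to 5.32 in the other libraries, and *Rac2*, a GTPase of blood cells, stood at 126 and 103 against 0.882 to 2.55. *Lsp1* ran the other way, at 2.15 and 1.77 for GFP- Pdgfrα- and 19.4 to 54.8 elsewhere.

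Blood stem and progenitor genes divided. Of 15 listed, 12 were analysed, and 7 were called lower and 5 higher in GFP- Pdgfrα+ cells than in GFP- Pdgfrα-, 7 lower and 4 higher in GFP+ Pdgfrα- cells than in GFP- Pdgfrα-. *Myb* had 287 and 245 for GFP- Pdgfrα- against 1.34 to 7.89 elsewhere, while *Cd34* had 3.59 and 7.19 against 90.9 to 236; the list summed to 1315 and 1327 for GFP- Pdgfrα-, 182 and 194 for GFP+ Pdgfrα-, 387 and 391 for GFP- Pdgfrα+, and 301 and 359 for GFP+ Pdgfrα+. The mast cell and basophil list (4 analysed of 13, *Kit* leading) summed to 490 and 381 for GFP- Pdgfrα- and 6.24 to 14.3 elsewhere, with 3 called lower in each of GFP+ Pdgfrα- and GFP- Pdgfrα+ cells. The megakaryocyte and platelet list (8 of 14, *Vwf* leading) summed to 108 and 134 against 16.0 to 33.6, with 5 called lower and 1 higher in each. The sums of these lists were therefore highest in the libraries where 7 of the 9 members were highest, and their part in the members' levels was not tested.

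The osteoclast, lymphoid, endothelial and stromal lists did not follow the members as a whole. Osteoclast genes (12 analysed of 16) summed to 2317 and 2504 for GFP- Pdgfrα- and 265 to 418 elsewhere through *Car2*, which erythroid cells also express and which had 2129 and 2323 for GFP- Pdgfrα-; 4 were called higher and 4 lower in GFP- Pdgfrα+ cells than in GFP- Pdgfrα-, and 5 higher and 3 lower in GFP+ Pdgfrα- cells. B cell genes (5 of 16) were led by *Ebf1*, at 6.75 and 10.5 for GFP- Pdgfrα- and 57.2 to 331 elsewhere, and summed to 13.4 and 20.4 for GFP- Pdgfrα- and 70.0 to 333 elsewhere. That sum follows *Ebf1*, and the median log2 difference of the list ran the other way. Against GFP- Pdgfrα- cells it was -0.37 in GFP- Pdgfrα+ (1 called higher, 1 lower) and -0.14 in GFP+ Pdgfrα- cells (2 higher, 0 lower). T and NK cell genes (5 of 16), led by *Tcf7*, summed to 2.15 and 10.7 for GFP- Pdgfrα- and 21.7 to 120 elsewhere. Endothelial genes (13 of 15, *Tek* leading) summed to 46.4 and 175 for GFP- Pdgfrα-, 63.2 and 145 for GFP+ Pdgfrα-, 82.1 and 106 for GFP- Pdgfrα+, and 81.9 and 102 for GFP+ Pdgfrα+. *Pecam1*, the gene of CD31, had 12.8 and 27.9 for GFP- Pdgfrα- and 3.91 to 18.1 elsewhere, with replicate 2 above replicate 1 in each population. Stromal genes (14 of 14, *Col1a1* leading) summed to 1099 and 1355 for GFP- Pdgfrα-, 8164 and 7166 for GFP+ Pdgfrα-, 55732 and 52536 for GFP- Pdgfrα+, and 101281 and 80803 for GFP+ Pdgfrα+. The stromal and T and NK cell sums, and the B cell sum that follows *Ebf1*, were thus lowest in the GFP- Pdgfrα- libraries. The erythroid and pan-leukocyte sums were highest there.

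**Figure D3:**
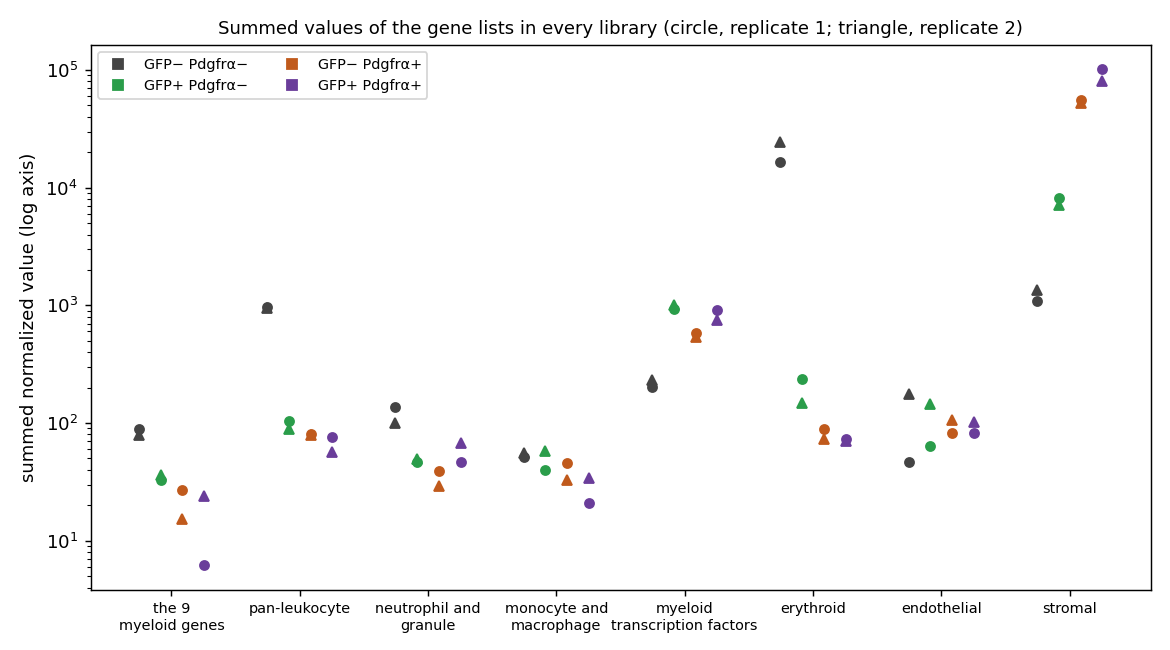
Summed normalized value (vertical log axis) of 8 gene lists in each library, coloured by population, with a circle for replicate 1 and a triangle for replicate 2. The erythroid list reaches 16592 and 24636 for GFP- Pdgfrα- against at most 236 in the other libraries, while the stromal list is lowest there.

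The sorted markers went with their labels. *Pdgfra* was at 3.30 and 4.36 for GFP- Pdgfrα- and 18.1 and 10.4 for GFP+ Pdgfrα-, against 733 to 839 in the Pdgfrα+ libraries. *Nes*, the mouse gene of nestin, was at 3.59 and 9.08 for GFP- Pdgfrα- and 149 and 176 for GFP+ Pdgfrα-, but 27.4 and 47.1 for GFP- Pdgfrα+ and 57.6 and 72.0 for GFP+ Pdgfrα+. A further difference lay in *mt-Rnr2*, a ribosomal RNA of mitochondria named after its values were seen, which took 27.2% and 29.1% of reads in GFP- Pdgfrα- cells and 9.52% to 17.6% in the others, and the part of this difference in the members' values was not tested beyond the other scalings given with the processing.

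Because several members moved together, the 250 bases before their annotated starts were searched on both strands for GAGGAA, the core of the sequence that PU.1 binds, and for TTNNGCAA, the core of a C/EBP site. RefSeq promoters (GRCm38.p6) were matched for 8 of the 9 genes, with 9 entries, since *Ptprc* has 2; *Csf1r* was not among them. GAGGAA was in at least 1 entry of 6 of the 8 genes, *Cd68* among them, and in 23.3% of all 32851 promoter windows of that length. TTNNGCAA was in 2 of the 8, *S100a9* and *Cd68*, and in 9.56% of all windows. The counts are of genes, where any entry is enough, and the shares are of single windows. They are therefore not on the same basis, and no excess was tested. *Ptprc* has GAGGAA in 1 of its 2 entries and is not printed. The stretches below are those of 4 other genes called lower in GFP- Pdgfrα+ cells than in GFP- Pdgfrα- that hold GAGGAA, with *S100a9* as the neighbour of *S100a8*; capitals mark GAGGAA (or TTCCTC, the same letters on the other strand) and, in *S100a9*, TTNNGCAA read on the other strand. A match is a description of letters in a window and does not show that a factor binds there.
*Mpo* (chr11:87793534-87793783, plus strand): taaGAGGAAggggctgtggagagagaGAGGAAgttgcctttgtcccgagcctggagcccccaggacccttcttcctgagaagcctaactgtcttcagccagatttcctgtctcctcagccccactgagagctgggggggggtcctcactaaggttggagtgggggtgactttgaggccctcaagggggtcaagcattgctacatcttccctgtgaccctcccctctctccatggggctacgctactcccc
*Elane* (chr10:79886062-79886311, plus strand): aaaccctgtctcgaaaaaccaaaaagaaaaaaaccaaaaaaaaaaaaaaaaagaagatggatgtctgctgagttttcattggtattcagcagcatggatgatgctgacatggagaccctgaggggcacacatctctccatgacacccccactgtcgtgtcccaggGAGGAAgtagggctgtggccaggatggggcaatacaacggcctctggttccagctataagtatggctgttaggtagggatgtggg
*S100a8* (chr3:90668821-90669070, plus strand): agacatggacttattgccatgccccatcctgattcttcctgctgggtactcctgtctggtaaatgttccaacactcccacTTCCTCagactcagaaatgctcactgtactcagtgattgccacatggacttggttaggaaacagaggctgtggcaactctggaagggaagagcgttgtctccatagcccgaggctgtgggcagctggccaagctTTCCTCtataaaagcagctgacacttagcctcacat
*S100a9* (chr3:90695722-90695971, minus strand): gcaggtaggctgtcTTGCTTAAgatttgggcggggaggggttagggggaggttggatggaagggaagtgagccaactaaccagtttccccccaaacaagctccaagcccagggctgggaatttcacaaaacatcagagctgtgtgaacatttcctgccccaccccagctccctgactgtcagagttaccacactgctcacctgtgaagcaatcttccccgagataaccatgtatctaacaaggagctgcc
*Itgam* (chr7:128062390-128062639, plus strand): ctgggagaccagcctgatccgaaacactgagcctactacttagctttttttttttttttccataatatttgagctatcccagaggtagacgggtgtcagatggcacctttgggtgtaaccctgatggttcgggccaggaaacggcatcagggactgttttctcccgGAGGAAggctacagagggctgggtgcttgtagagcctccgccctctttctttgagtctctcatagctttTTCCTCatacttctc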

How the data were processed

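RNA-seq libraries of 4 stromal populations, 2 per population, were analysed. The submitters' processing notes name cutadapt, Picard, RSEM 1.17 and limma. The authors aligned reads to transcripts of NCBIM37 (Ensembl gene build 65) and estimated their abundance with RSEM. The deposited table holds a normalized signal on a linear scale, scaled by the authors with voom, and 100% of its values lay within 0.05 of a whole read once the step of 1 read was divided out. Reads per library ran from 3221217 to 5302762. Symbols, lengths and coordinates came from GENCODE M1, which matched 15849 of 15880 identifiers.

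All genes were fitted on log2(value + 1) with limma 3.58.1 in R 4.3.3 (eBayes with a trend). The fit had a mean for each population and 4 residual df, and no further filter was applied. The paper's own statistics covered only genes above 2 counts per 1e6 in at least 2 samples. The deposited table may therefore already be limited to such genes. With 2 libraries per population, that rule keeps a gene that is high in a single population. Whether it removed the listed genes that have no row was not tested. On the normalized values, the 9 genes all pass a filter of values over 2 in at least 2 libraries. *Ptprc*, *Elane* and *Csf1r* pass it through 2 libraries only. For *Ptprc* and *Elane* these are the libraries of GFP- Pdgfrα- cells, where they are high. On the recovered reads, edgeR 4.0.16 called 8415 genes in GFP+ Pdgfrα- against GFP- Pdgfrα- cells, 893 in GFP+ Pdgfrα+ against GFP- Pdgfrα+, 9281 in GFP- Pdgfrα+ against GFP- Pdgfrα- and 3586 in GFP+ Pdgfrα+ against GFP+ Pdgfrα-. The fits were tested on simulated data. Tables and figures were made in Python 3.11.15 (matplotlib 3.10.9, scipy 1.17.1, pandas 2.3.3, numpy 2.4.6).

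The members and lists were chosen with earlier results of these data known. Genes named are the members; the 3 with the highest mean in each list; called genes of the 4 myeloid lists; the 3 most correlated with each member; *Pdgfra*, *Nes*, *Pecam1*, *S100a10*, *S100a11* and *Lyz1*. Other genes named are said to be so. Lists share genes: *Kit* stands in 3, and 9 of the members in at least 1. Replicates spread beyond what read counting alone gives, with chi-square/df between 4.12 and 9.12. The study describes each set of samples as pooled littermates, so the replicate number may mark a shared pool. Deviations of libraries with the same number were correlated at 0.00433 to 0.0812 over pairs of populations. Alternatives were the replicate block, other fits, pseudocounts, scalings, thresholds, a filter, and leaving out libraries.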

Additional observations from a re-analysis of the deposited data

Results flagged for a closer look

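The difference between GFP+ and GFP- cells was another among Pdgfrα- than among Pdgfrα+ cells for *Ptprc*, by the interaction term of the fit. It was -2.21 among Pdgfrα- cells and 0.88 among Pdgfrα+ cells, and the interaction was -3.09 on the log2(value + 1) scale (standard error 0.58, adjusted p = 0.000989, limma; 0.000352 to 0.00749 over 17 alternatives). *Ptprc* had 0 reads in both GFP- Pdgfrα+ libraries, so the fitted size depends on the pseudocount and is no bound. Both this gene and *Elane* have values over 2 only in the GFP- Pdgfrα- libraries, so under a filter on such values they are in the table only because they were high there, and neither adjusted p carries weight.

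The same held for *Elane*, with -1.54 among Pdgfrα- cells, 0.51 among Pdgfrα+ cells and an interaction of -2.05 (standard error 0.58, adjusted p = 0.0127, limma; 0.00239 to 0.0486 over 17 alternatives). It rests on 20 reads in GFP- Pdgfrα- cells, 1 for GFP+ Pdgfrα-, 0 for GFP- Pdgfrα+ and 4 for GFP+ Pdgfrα+. As for *Ptprc*, its fitted size depends on the pseudocount and its adjusted p is given without weight. Erythroid genes shared with both the high level in GFP- Pdgfrα- cells, with summed values of 16592 and 24636 there and 70.1 to 236 elsewhere. Among Pdgfrα+ cells the median log2 difference of the erythroid genes between GFP+ and GFP- was 0.03. The part of erythroid genes was not tested.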

How the results depend on the processing

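The 16 called differences of single genes kept their direction in all 314 alternative values; 46 of these lost the call, and 12 from dropping a whole replicate number, which leaves no test, moved by at least the standard error. The counts of called members were 4 for GFP+ Pdgfrα- against GFP- Pdgfrα-, 1 for GFP+ Pdgfrα+ against GFP- Pdgfrα+, 7 for GFP- Pdgfrα+ against GFP- Pdgfrα-, 2 for GFP+ Pdgfrα+ against GFP+ Pdgfrα-, 7 for any difference and 2 for the interaction. With the replicate block they were 4, 1, 7, 2, 7 and 2, and no call of a member changed. For GFP+ Pdgfrα- against GFP- Pdgfrα- the count was 7 with only the compared populations, 8 with quantile normalization and 7 with median centring. For GFP+ Pdgfrα+ against GFP- Pdgfrα+ it was 0 with only the compared populations, without a trend, with voom on recovered reads and at an adjusted p of at most 0.01. For GFP- Pdgfrα+ against GFP- Pdgfrα- it was 4 with a pseudocount of 0.1. For GFP+ Pdgfrα+ against GFP+ Pdgfrα- it was 1 with only the compared populations, without a trend, with a pseudocount of 0.1, with edgeR and at 0.01, and the interaction count was 1 at 0.01. The cause was not tested. Leaving out libraries, where a lone library is assumed to vary like the others, gave 1 to 5, 0 to 1, 4 to 8, 0 to 3, 5 to 8 and 2 to 4 in the order above. The first was 2 without GFP- Pdgfrα- replicate 1 and 1 without GFP+ Pdgfrα- replicate 1. The next was 0 without either GFP+ Pdgfrα- library, GFP- Pdgfrα+ replicate 1 or either GFP+ Pdgfrα+ library. GFP- Pdgfrα+ against GFP- Pdgfrα- was 4 without GFP- Pdgfrα- replicate 1. GFP+ Pdgfrα+ against GFP+ Pdgfrα- was 0 without GFP+ Pdgfrα- replicate 1 or GFP+ Pdgfrα+ replicate 1, and 1 without GFP+ Pdgfrα- replicate 2 or either GFP- Pdgfrα+ library. The interaction was 4 without GFP- Pdgfrα- replicate 2 or GFP+ Pdgfrα+ replicate 1. *Itgam* in GFP+ Pdgfrα- against GFP- Pdgfrα- cells was called with only the compared populations, quantile normalization, median centring and without either GFP+ Pdgfrα+ library. Over all genes, calls in GFP+ Pdgfrα+ against GFP- Pdgfrα+ were 849 with limma, 532 without a trend, and 306, 246, 350 and 517 without GFP- Pdgfrα+ replicate 1, GFP- Pdgfrα+ replicate 2, GFP+ Pdgfrα+ replicate 1 and GFP+ Pdgfrα+ replicate 2; in GFP+ Pdgfrα+ against GFP+ Pdgfrα- they were 3848, and 2158 and 2411 without GFP+ Pdgfrα- replicate 1 and replicate 2. Median centring moved the median of all genes from 0.15 to -0.30 in GFP+ Pdgfrα- and from 0.17 to -0.28 in GFP- Pdgfrα+ cells, both against GFP- Pdgfrα-. The share of calls that were higher went from 56.1% to 38.9% and from 55.1% to 40.6%; called members were lower under each scaling.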
